A study of Mus musculus with 2 samples.

Results

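The 42 mitosis genes described here were chosen by name for the roles of their proteins in cell division: cyclins and Cdk1, mitotic kinases, spindle checkpoint, chromosomal passenger complex, kinetochore, spindle and cytokinesis proteins, and the factors that switch such genes on. They are 42 of 21853 protein-coding genes on the annotated mouse chromosomes. Open chromatin was measured by DNase-seq in ovary tissue of 2 female B6CASTF1/J mice, the F1 hybrid of C57BL/6J and CAST, each 36 days old. DNase I cuts DNA that nucleosomes do not cover, so peaks of cuts mark open sites, and short protected stretches, mostly inside them, are called footprints. The labels number a different female for each library but give both the same donor entry, which was read as the strain, so the libraries were taken as 2 animals. If they came from 1 animal, the SD measures technical spread alone. The libraries, called replicate 1 and replicate 2, form 1 untreated group with nothing to compare it with except the rest of the genome.

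In a cycling cell these genes are transcribed late, in G2 and mitosis. Outside that time the DREAM complex holds many of them down through its MuvB core, which contacts a short element near the start site, the cell cycle homology region (CHR). Later the same core joins B-MYB (the product of Mybl2) and FOXM1 and switches the genes on, while the trimeric factor NF-Y binds CCAAT boxes upstream of the element. In the ovary of a young female the granulosa cells of growing follicles are the main dividing cells.

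A promoter was called open where both libraries had a peak no more than 500 bp from an annotated start of a protein-coding transcript. The value of a promoter is the deposited signal value of its strongest peak, in arbitrary units whose scaling no source used here gives. Replicate 1 held 109169 peaks and 301406 footprints, and replicate 2 held 114462 peaks and 294269 footprints. Of these footprints, 84.5% in replicate 1 and 86.7% in replicate 2 touched a peak. Against 65.6% of all protein-coding genes, an open promoter was found at 8 of 8 granulosa markers, 5 of 6 theca, 5 of 6 stroma and 3 of 6 endothelial markers. None of the 8 oocyte and 6 leukocyte markers had one, and 2 of 6 markers of hepatocytes, which an ovary lacks, did. The measurement is of whole tissue, so fewer cells of a type and less open DNA per cell cannot be told apart, and which cells carried the open mitosis promoters was not measured.

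The promoters of all 42 genes were open in both libraries, against 65.6% of all protein-coding genes. The strongest peaks of replicates 1 and 2 overlapped at each of the 42 promoters, and the strongest peak covered the start site in both libraries at 32 of them. Neither count was made over all open promoters. The signal of the 42 promoters was near that of other open promoters, and the largest differences in share were in 2 short sequence elements. A CHR word (TTTGAA or TTCGAA, on either strand) lay in the window from 250 bp before to 50 bp after the start in 27 of 42 promoters, or 64.3%, against 12.2% of the 14332 open promoters. TTTGAA alone was found in 25 (59.5%, against 10.5%). A CCAAT box on either strand lay in 34 of 42, or 81%, against 37.4%.

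The CHR words that coincided with a footprint in both libraries, within 100 bp of the start, are shown first because the results below turn on this element. Each run reads 5′ to 3′ along the gene, with the CHR word in capitals (TTCAAA is TTTGAA read on the other strand). Where GCG stands 5 bases before the word, the composite that is known as a CDE-CHR pair, GCG is in capitals too.
Ccnb2 (cyclin B2), chr9:70421533-70421562, minus strand: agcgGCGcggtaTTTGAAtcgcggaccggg
Plk1 (polo-like kinase), chr7:122159453-122159482, plus strand: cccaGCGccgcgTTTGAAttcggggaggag
Bub1 (checkpoint kinase), chr2:127831828-127831857, minus strand: ctgcGCGgggaaTTCGAAtcgccggcggcc
Bub1b (checkpoint protein BUBR1), chr2:118598239-118598268, plus strand: agagacgttaaaTTTGAAacttggcggccc
Aurkb (Aurora kinase B), chr11:69045636-69045665, plus strand: tagaGCGggagaTTCGAAagcgtccgggtc
Kif11 (the bipolar spindle motor Eg5), chr19:37376351-37376380, plus strand: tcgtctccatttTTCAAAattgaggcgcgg
Racgap1 (centralspindlin subunit), chr15:99651634-99651663, minus strand: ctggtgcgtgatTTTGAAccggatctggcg
Foxm1 (the forkhead activator itself), chr6:128362951-128362980, plus strand: gccggcgccaatTTCAAAcagcggaacaac
Bub1 and Aurkb carry TTCGAA and the other 6 carry TTTGAA, in Kif11 and Foxm1 on the other strand. In Foxm1 a CCAAT box, in lower case here, directly abuts the element. In Plk1 and Foxm1 the CHR word and its footprint lay outside the strongest promoter peak of replicate 2, or at its edge at most. A footprint was not required to lie in a peak. Coordinates are on mm10, and the letters are those of the C57BL/6J reference (RefSeq GRCm38.p6), so the CAST allele of these hybrids was not examined.

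The CHR words lay close to the start site. Position 0 is the first transcribed base and negative positions lie before it. Of the 42 promoters, 23 (54.8%) held a CHR word within 50 bp of the start, against 2.8% of open promoters, a band chosen after the positions had been seen. In the 25 bp before the start 19% of the mitosis promoters held one and in the first 25 bp of the transcript 21.4% did. Of the 25 CHR words in this band, 19 read along the gene or in both directions (TTCGAA is its own reverse complement) and 6 read on the other strand alone. Open promoters of the same GC classes as the members held a CHR word in 15.8% of cases, weighted by the members in each class. The same words read backwards lay within the window of 9 members, or 21.4%, against 15.3% of open promoters. Within 50 bp of the start they lay in 4 members, or 9.52%, against 3.91% of open promoters.

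**Figure D1:**
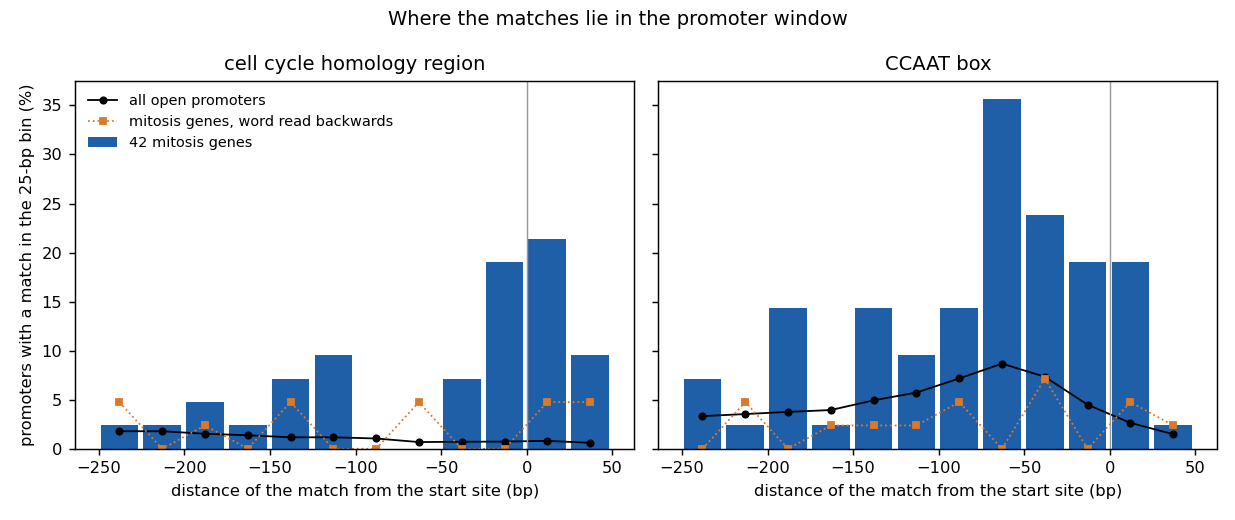
Share of promoters (%) with a match starting in each 25-bp bin of the window, by distance from the start site (bp), for the cell cycle homology region (left) and the CCAAT box (right). Bars are the 42 mitosis genes, black points all 14332 open promoters, and orange points the same words read backwards in the 42 genes. The CHR bars are highest at the start site (19% and 21.4%), and the CCAAT bars rise before it.

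The CDE-CHR composite, GCG followed by any 5 bases and then TTTGAA or TTCGAA, was rarer and more unequally spread. It occurred in 6 mitosis promoters, those of Ccnb2, Cdk1, Plk1, Bub1, Aurkb and Cenpf, which is 14.3% of the set, against 0.384% of open promoters (55 of 14332). All 6 composites lay within 50 bp of the start, where 0.181% of open promoters held one. A footprint touched the composite in both libraries in 4 of the 6, against 50.9% of open promoters with a composite. In Cdk1, the kinase that drives entry into mitosis, the composite began at position 3 and a footprint touched it in replicate 2 only. In Cenpf, a kinetochore protein, it began at position -6 and a footprint touched it in replicate 1 only.

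CCAAT boxes came in numbers and usually before a CHR word. Within 50 bp of the start 22 members held one, against 14.2% of open promoters. The promoters of 22 members (52.4%) held at least 2 boxes, against 14% of open promoters. Both words were present in 25 members, against 5.23% of open promoters. Among the 23 members with a CHR word within 50 bp of the start, 20 (87%) had a CCAAT box starting within 100 bp before it, against 33.6% of the 402 open promoters with such a CHR word. Over all promoters this arrangement was found in 47.6% of the members, against 0.942% of open promoters. The nearest box began a median of 35 bp before the CHR word, with a range from 5 to 73 bp. Anln, Bub1b and Ndc80 lacked such a box. These counts were added after the positions had been seen.

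In 6 members adjacent CCAAT boxes stood 31 to 33 bp apart: Ccnb1, Ccnb2, Cdk1, Aurka, Spc25 and Nusap1. That is 27.3% of the members with at least 2 boxes, against 11.9% of open promoters with at least 2, and the range was chosen after the spacings had been seen. Adjacent boxes 41 to 43 bp apart were found in 22.7% of such members, against 9.76% of such open promoters. For 21 to 23 bp the shares were 9.09% and 2.14%, so the excess was not particular to 31 to 33 bp. The runs of 4 of the 6 genes named above are shown to let the spacing be read. CCAAT, or ATTGG where the box faces the other way, is in capitals.
Ccnb2, chr9:70421563-70421649, minus strand: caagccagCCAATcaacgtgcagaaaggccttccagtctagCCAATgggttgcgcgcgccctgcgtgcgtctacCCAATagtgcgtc
Cdk1, chr10:69352948-69353000, minus strand: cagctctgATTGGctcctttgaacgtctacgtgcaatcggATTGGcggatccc
Aurka, chr2:172370577-172370629, minus strand: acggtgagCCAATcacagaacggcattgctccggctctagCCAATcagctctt
Spc25, chr2:69206224-69206276, minus strand: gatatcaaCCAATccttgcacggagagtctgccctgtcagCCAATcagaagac
The Ccnb2 run holds 3 boxes, each 33 bp from the next, and ends just before its CHR run above. In Cdk1 a further CHR word, tttgaa, lies between the 2 boxes. In Cdk1, Aurka and Spc25 the boxes are 32 bp apart.

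Footprints at the CHR were counted by promoter and by position. A CHR word touched a footprint in both libraries in 9 of the 27 members with one (33.3%), against 11.7% of open promoters with one. The 9 were Ccnb2, Plk1, Bub1, Bub1b, Aurkb, Kif11, Racgap1, Top2a and Foxm1. However, footprints were dense in these windows: any stretch of 6 bases touched one in both libraries at 24.4% of positions in the members and at 18.9% in all open promoters. Counted by word, 10 of 37 CHR words in the members (27%) were touched, near the share of all positions there. In all open promoters 11% of CHR words were touched, below the 18.9% of positions. Within 50 bp of the start the shares in the members were 8 of 25 words (32%) and 26.2% of positions, and in all open promoters 18.2% of words and 23.9% of positions. With the whole word inside a footprint in both libraries, the count was 3 of the 27 members, against 3.6% of open promoters with a CHR word.

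At CCAAT boxes a footprint was present in both libraries in 16 of 34 members (47.1%), against 29.5% of open promoters with a box. By box, 23 of 72 (31.9%) were touched, where 23% of all 5-base positions in the member windows were. As a control, the box read backwards (TAACC) was touched in both libraries in 6 of the 12 members that held it (50%), against 13.2% of open promoters with it. No difference between the box and its control in footprints at the members can be read from numbers this small.

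**Figure D2:**
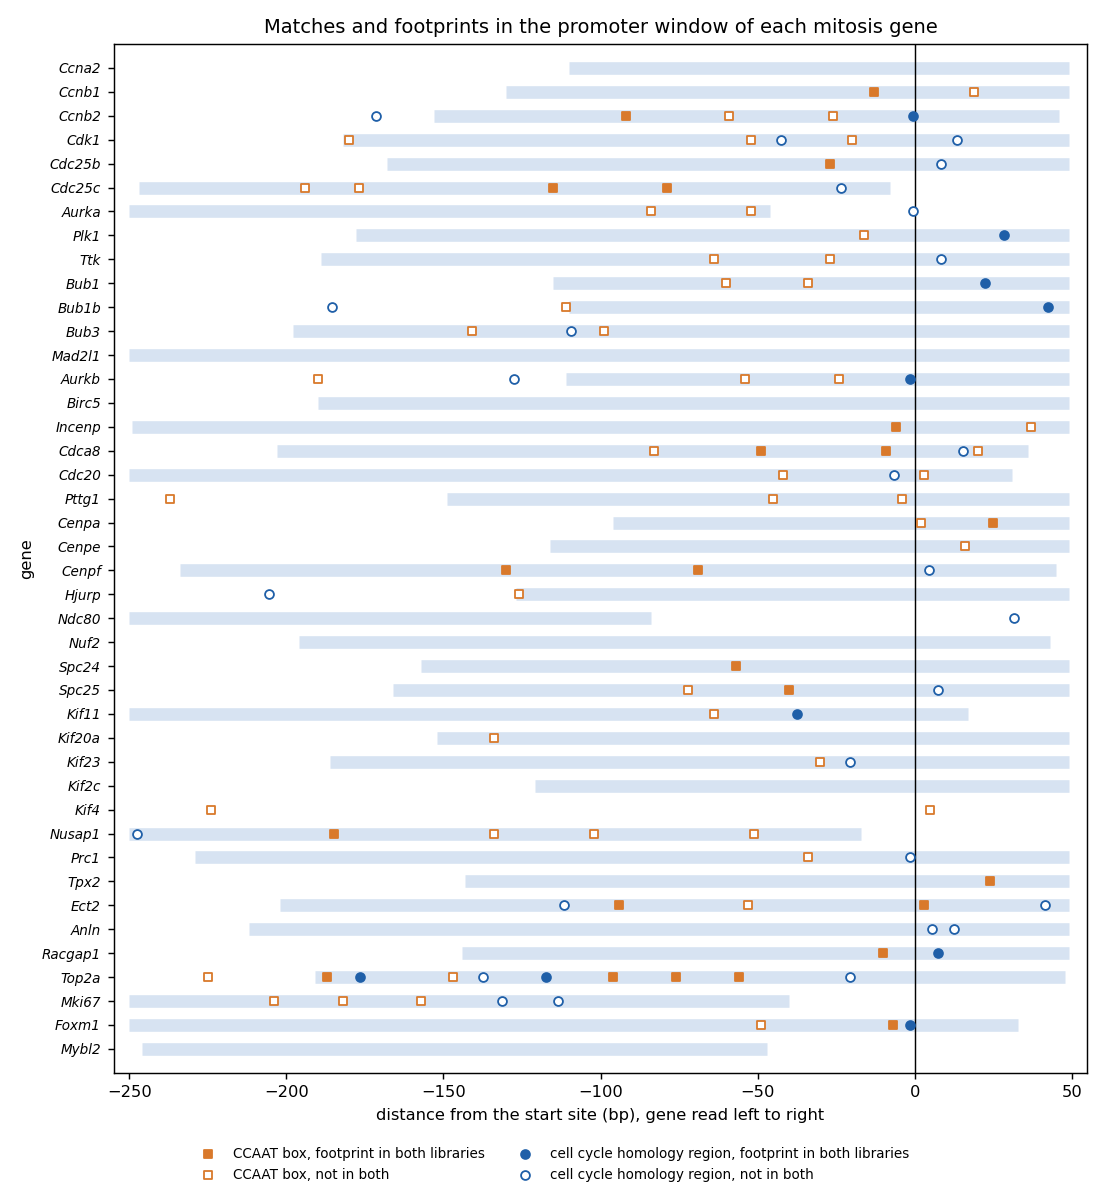
Matches of the CHR (blue circles) and the CCAAT box (orange squares) in the promoter window of each mitosis gene, by distance from the start site (bp). Filled symbols touch a footprint in both libraries, and pale bars show where the strongest peak of either library covers the window. Blue circles gather at the start site in 23 genes, 6 genes have neither symbol, and the strongest peak of Kif4 lies outside the window.

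The mitosis promoters without either word were those of Ccna2, Mad2l1, Birc5, Nuf2, Kif2c and Mybl2. Their mean values over the libraries ran from 5.93 at Kif2c to 11.9 at Ccna2. Only Kif2c lay below the median of all members, 6.14. Ccna2 had a value of 16.4 in replicate 1 and 7.38 in replicate 2, and Nuf2 had 13.5 and 8.39. Absence of the word says only that these letters are not in this window. Ccna2, which encodes cyclin A2, held 4 partly overlapping GC boxes (GGGCGG, the word of SP and KLF factors) and 1 NRF1 word (GCGCNTGCG), and footprints touched all 5 in both libraries. Mybl2 held 4 GC boxes, of which 3 were touched in both libraries.

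Other words differed less in share. The E2F word (TTTCCCGC, TTTGGCGC, TTTCGCGC or TTTGCCGC) is the element of genes that are switched on earlier, at the entry to S phase, and it was found in 1 member, Cdk1 (2.38%, against 4.27% of open promoters). In a list of 30 DNA replication genes it was found in 13 (43.3%), while a CHR word lay within 50 bp of the start in 1 of those 30 (3.33%). The 16 cohesin and condensin genes, which act on chromosomes in mitosis, had a CHR word in 8 (50%), all within 50 bp of the start. CCAAT boxes were found in 75% of these and in 70% of the DNA replication genes, so the shares of that word were alike. The MYB word (CAACGG or TAACGG) was found in 10 members (23.8%, against 10.3%), with a footprint in both libraries in 1 of the 10, in the Hjurp window, against 25.6% of open promoters with the word. The forkhead word (TGTTTAC or TATTTAC or else TGTTTAT) was found in 3 members (7.14%, against 5.55%) and the GC box in 32 (76.2%, against 67.2%). Of further promoter words, NRF1 was found in 5 members (11.9%, against 13.5%), ETS (CCGGAAG) in 8 (19%, against 16.9%), CTCF (CAGNNGGCG) in 4 (9.52%, against 15.9%), the cAMP response element (TGACGTCA) in 2 (4.76%, against 3.45%) and YY1 (AAGATGGCG) in 2 (4.76%, against 2.94%). Footprints in both libraries touched the NRF1 word in 5 of 5 members, the cAMP response element in 2 of 2 (Cenpe and Ndc80) and the YY1 word in 2 of 2 (Cdca8 and Kif20a), against 82%, 85.3% and 41.9% of open promoters with the word. The word of the steroidogenic factors NR5A (TCAAGGTCA or CCAAGGTCA) was found in no member promoter (against 0.642%).

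The promoter values of the set were slightly above those of open promoters in general. The median member had 7.92 in replicate 1 and 4.39 in replicate 2, where the median open promoter had 6.71 and 3.61. The mean of the libraries was above the median of all open promoters for 27 of 42 members, and ran from 2.60 at Pttg1 to 41.1 at Hjurp. The lowest member stood at the 27.5th percentile of open promoters. Peak widths were alike, with medians of 220 and 240 bp in the members against 220 and 260 bp, and so were the footprints per strongest peak, 4 and 5 in both. Member windows were less rich in GC (57.8% against 61.7%) and held CpG at 0.884 of the number their base composition predicts, against 0.765.

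**Figure D3:**
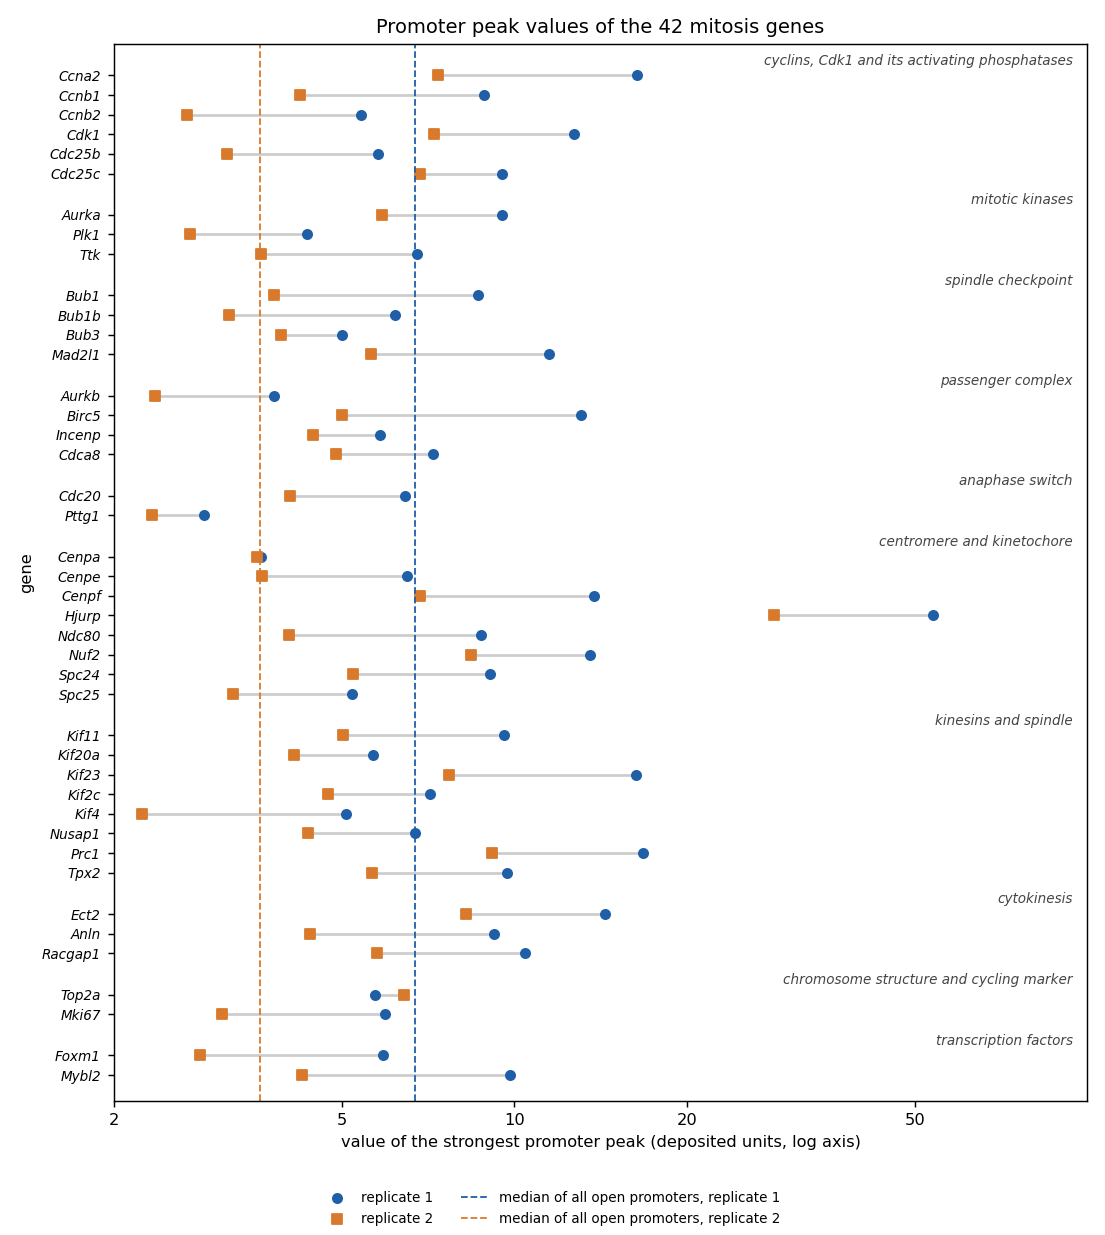
Value of the strongest promoter peak (deposited units, log axis) of each of the 42 genes, by role, in replicate 1 (blue circles) and replicate 2 (orange squares). Dashed lines are the medians of all open promoters, 6.71 and 3.61. Hjurp lies far to the right of the others at 53.7 and 28.4, and the order of the libraries is turned only at Top2a.

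Among the cyclins, Cdk1 and the phosphatases that activate it, the highest values were at Ccna2, given above, and at Cdk1, with 12.7 in replicate 1 and 7.25 in replicate 2. The lowest were at Ccnb2, with 5.40 and 2.69, and at Cdc25b, a phosphatase that removes inhibitory phosphates from Cdk1, with 5.79 and 3.15. The partner cyclins thus spanned a range: the mean value was 11.9 ± 6.35 (SD, n = 2) for Ccna2, 6.54 ± 3.26 for Ccnb1 and 4.04 ± 1.92 for Ccnb2. The spread is mostly the offset between the libraries, since within each library Ccna2 was highest and Ccnb2 lowest of the 3.

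Of the mitotic kinases, Aurka was above the median of the members and Ttk and Plk1 were below it. Aurka, which matures spindle poles, had 9.53 and 5.89. Ttk, the kinase that starts checkpoint signalling at kinetochores, had 6.77 and 3.61. Plk1, which acts from mitotic entry to cytokinesis, had 4.35 and 2.72. Their order was the same in both libraries.

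The spindle checkpoint delays anaphase until every kinetochore is attached. Mad2l1, its inhibitor of the anaphase promoting complex, had the highest value of these genes, 11.5 in replicate 1 and 5.63 in replicate 2. Bub1 had 8.64 and 3.80, and Bub1b had 6.19 and 3.18. Bub3, which carries both to kinetochores, had 5.00 and 3.91, so it was the lowest in replicate 1 and above Bub1b and Bub1 in replicate 2.

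The chromosomal passenger complex corrects faulty attachments. Its kinase Aurkb had a low promoter value, 3.80 in replicate 1 and 2.36 in replicate 2. Its localising subunit Birc5 (survivin) had 13.1 and 5.00, its scaffold Incenp had 5.82 and 4.46, and Cdca8 (borealin) had 7.21 and 4.89. The proteins act as 1 complex, but within replicate 1 the promoter values of its kinase and of survivin differed most among the 4.

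The switch to anaphase is made by Cdc20, the activator of the anaphase promoting complex, and by the securin Pttg1, which that complex destroys. Cdc20 had 6.43 in replicate 1 and 4.06 in replicate 2. Pttg1 had the lowest mean of the set, with 2.87 and 2.33. The 17 genes of the anaphase promoting complex list, whose products are needed in and out of mitosis, were also all open, with a median mean value of 10.4 and the highest at Fzr1 (32 and 12.7).

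Of the 8 centromere and kinetochore genes, Hjurp, the chaperone that deposits the centromeric histone, stood out with 53.7 in replicate 1 and 28.4 in replicate 2, the highest mean of all 14332 open promoters. Its site, chr1:88277521-88277760, had the same borders in both libraries and 3 footprints in each. The start of Trpm8, a cation channel gene on the opposite strand, lies 28 bp away in the same site, so the value cannot be assigned to Hjurp alone. The site had no second match on an assembled chromosome. Cenpa, the histone that Hjurp deposits, was among the lowest, with 3.61 and 3.56. Nuf2, of the microtubule-binding NDC80 complex, had 13.5 and 8.39, and its partner Spc25 had 5.22 and 3.23.

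Among the kinesins and spindle proteins, Prc1, which bundles the midzone, had 16.8 in replicate 1 and 9.14 in replicate 2, and Kif23, a motor of centralspindlin, had 16.3 and 7.69. Kif4, a chromokinesin on the X chromosome, had 5.09 and 2.24, and Kif20a had 5.67 and 4.13. Kif4 was unusual in position: its strongest peak lay from 244 to 423 bp after the start, and its window was the poorest in GC of the set at 40.3%. Of the cytokinesis genes, Ect2, which activates RhoA at the cleavage site, had 14.4 and 8.23, Racgap1 had 10.5 and 5.75, and Anln (anillin) had 9.22 and 4.41. The last 4 genes were Top2a, described below, Mki67, the Ki-67 marker of cycling cells, with 5.96 and 3.09, and the transcription factors Foxm1, with 5.91 and 2.83, and Mybl2, with 9.84 and 4.26.

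Values were lower in replicate 2 at 41 of the 42 promoters, as at most open promoters, of which 3.29% were higher there. The log2 ratio of replicate 2 over replicate 1 was therefore taken relative to the median of all open promoters, which was -0.89. On this scale the members had a median of 0.04 and an SD of 0.32, where open promoters had an SD of 0.39. The highest ratios were at Top2a (1.06), Cenpa (0.87) and Pttg1 (0.59), and the lowest at Birc5 (-0.50), Mybl2 (-0.32) and Bub1 (-0.30). With 1 animal per library these differences have no replicate check.

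The ratio fell with GC content. Across the 42 members Pearson's r was -0.51, and across the 14332 open promoters it was -0.52, where promoters share the libraries and their depth and are not independent. The 7 members under 50% GC had a median ratio of 0.20, and the 11 members at 65% or more had -0.17. Relative to open promoters in the same 10% class of GC content, Top2a was at 0.65, Cenpa at 0.46, Pttg1 at 0.18 and Birc5 at -0.31. On that scale Bub3 (0.52) took the second place from Cenpa, and the lowest were Kif4 (-0.70), Bub1b (-0.48) and Bub1 (-0.44). Kif4, the member whose window had the lowest GC content, thus lay against the slope, but its strongest peak lies outside that window. The GC content of that peak was not measured. What else differed between the animals or libraries was not tested.

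**Figure D4:**
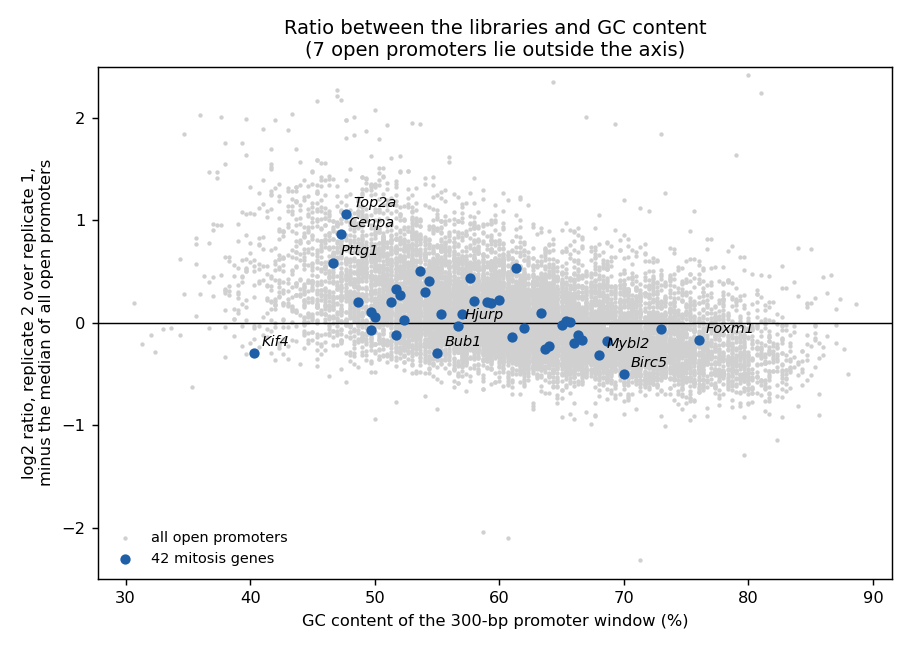
Log2 ratio of promoter values, replicate 2 over replicate 1, minus the median of all open promoters, against the GC content (%) of the promoter window. Grey points are all open promoters and blue points the 42 mitosis genes. The blue points follow the downward slope of the grey ones, with Top2a (1.06) highest and Birc5 (-0.50) lowest.

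Top2a, which encodes the topoisomerase that untangles sister chromatids, was the 1 member with a higher value in replicate 2: 5.71 in replicate 1 and 6.43 in replicate 2, at chr11:99024141-99024360. It also had more CCAAT boxes than any other member, 6, of which 4 touched a footprint in both libraries, and 4 CHR words, of which 2 did. The stretch with the boxes is shown because it makes the repeat visible, with CCAAT or ATTGG in capitals.
Top2a, chr11:99024235-99024424, minus strand: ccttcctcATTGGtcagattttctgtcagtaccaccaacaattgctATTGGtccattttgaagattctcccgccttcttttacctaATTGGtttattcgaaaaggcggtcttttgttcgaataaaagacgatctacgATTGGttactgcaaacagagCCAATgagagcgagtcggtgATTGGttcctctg
In this stretch 5 of the boxes face away from the gene and 1 faces along it. The last 3 boxes begin at positions -98, -78 and -58, evenly 20 bp apart, and a footprint touched each of them in both libraries.

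At 8 members another protein-coding gene started within 1000 bp on the opposite strand. This count was not made over all open promoters, so whether 8 of 42 is many or few was not tested. Besides Hjurp and Trpm8, the pairs were Aurka with Cstf1 (146 bp), Cdc25b with Spef1 (324 bp), Cdca8 with 9930104L06Rik (131 bp), Foxm1 with Rhno1 (56 bp), Kif20a with Brd8 (12 bp), Kif4 with Pdzd11 (198 bp) and Nusap1 with Oip5 (171 bp between the nearest starts). In Cdca8, Foxm1, Hjurp and Kif20a the strongest site covered the starts of both genes, so those values cannot be assigned to either. In Aurka and Nusap1 it covered the start of the neighbour and no start of the member. In Kif4 it covered neither start. There it lay from 244 to 423 bp after the Kif4 start, nearer to the Pdzd11 start at 198 bp. The Kif4 value thus cannot be assigned to Kif4 alone. Non-coding transcripts started within 1000 bp of Cdc25c (2010110K18Rik), Ect2 (1700125G22Rik), Incenp (AC132253.4 and AC132253.8), Ndc80 (Mettl4-ps1) and Plk1 (Gm15489). Over the members with no protein-coding neighbour the median mean value was 6.47, against 6.14 over all 42, a comparison added after the data were seen.

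Open sites away from promoters were unevenly spread over the members. A distal peak was one centred more than 1000 bp from every start site, and it went to whichever protein-coding gene started nearest. Replicate 1 held 124 and replicate 2 held 149 such peaks for the set, and 93 sites were shared. The median member had 0 shared distal sites, where the median gene with an open promoter had 1, and 22 members (52.4%) had none, against 31.6% of genes with an open promoter. The mean was 2.21 per member, near the 2.41 over all protein-coding genes. The members had less room: the stretch nearest to their starts measured a median of 39.1 kb, against 52.1 kb for genes with an open promoter, and its part in the count was not tested. Of the 93 sites, 59 were intergenic, 25 lay in introns and 9 in exons. Their median value was 1.09, against 0.793 for all 52596 shared distal sites.

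The distal sites were concentrated at 3 genes. Mki67 had 24, spread over a stretch of 624 kb nearest to it, Hjurp had 11 in 26.9 kb and Aurkb had 7 in 21.8 kb, together 42 of the 93. The 5 sites of highest value all lay upstream of Aurkb. The strongest, at chr11:69041701-69041920, 3.84 kb from the start, had 7.52 in replicate 1 and 6.56 in replicate 2. Next came chr11:69040201-69040480 with 5.93 and 4.83, and chr11:69040941-69041140 with 4.56 and 5.76. The others were chr11:69035981-69036180, 9.57 kb away in an exon of Ctc1, a telomere maintenance gene, with 4.59 and 3.49, and chr11:69036881-69037100 with 3.89 and 3.71. At the strongest of these sites the value was above that of the Aurkb promoter in both libraries (3.80 and 2.36). Which gene these sites act on was not measured, since each was assigned by distance alone.

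A distal site stronger than the promoter, by the mean of the libraries, was found for 2 of the 20 members with a distal site: Aurkb and Pttg1. This count was not made over all genes with an open promoter. For Pttg1 the stronger site lay 74.2 kb downstream, with 3.64 in replicate 1 and 2.53 in replicate 2. The strongest distal site of Mki67 lay 19.5 kb upstream, with 4.81 and 2.62, and that of Hjurp 10.1 kb upstream in an intron of Trpm8, with 3.48 and 2.83.

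**Figure D5:**
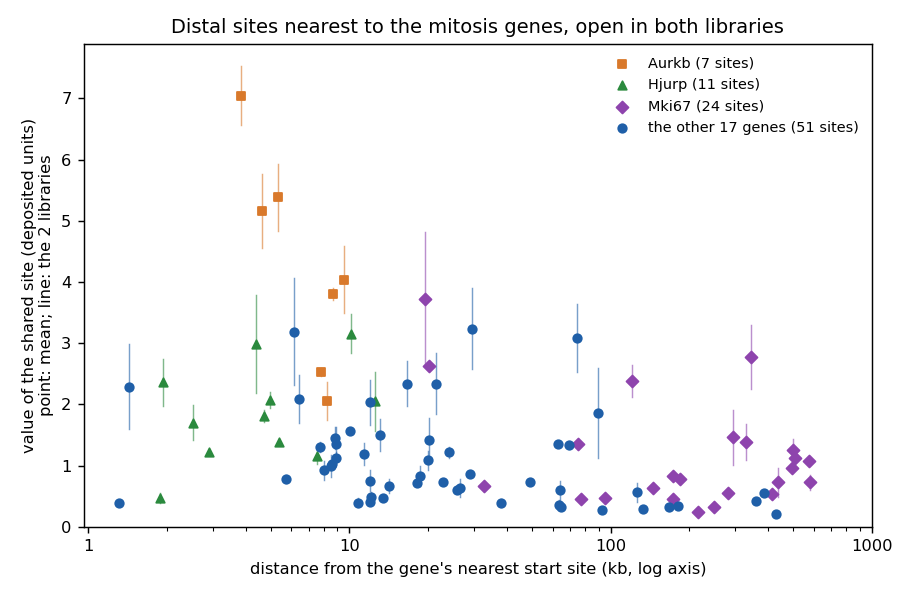
Value of each shared distal site (deposited units, points the mean and lines the range of the 2 libraries) against its distance from the gene's nearest start site (kb, log axis). The 7 sites of Aurkb lie within 10 kb and include the 5 highest, while the 24 sites of Mki67 reach farther, with 2.77 at 344 kb.

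Both promoter words were found at few distal sites, in a window shorter than that of the promoters. Within 75 bp of the site's centre a CHR word was found in 9 of 93 sites (9.68%, against 7.66% of all shared distal sites) and a CCAAT box in 10 (10.8%, against 16.2%). The NR5A word was found in 4 distal sites (4.3%, against 2.22%). No distal site held a CDE-CHR composite.

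Other genes of the division cycle were open as widely. All 30 DNA replication genes had an open promoter, with a median mean value of 8.29 and the highest at Ccne1 (cyclin E1, 23 in replicate 1 and 10.9 in replicate 2). So did all 16 regulators of mitosis promoters, such as the MuvB, E2F and NF-Y subunits, with a median of 7.62 and the highest at Nfya (25.2 and 11.6). All 16 cohesin and condensin genes were open, with a median of 7.98 and the highest at Stag1 (22.5 and 10.5). The 16 genes of the D cyclins, their kinases and cell cycle brakes were open as well, with a lower median of 4.79 and the highest at Cdkn2d (21.4 and 10.1). Of the genes of meiosis, which oocytes enter before birth, 9 of 15 were open, near the 65.6% of all genes. Their median was low at 1.22, and Ccnb3 and Hormad1 were among the 5 with no promoter peak in either library.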

How the data were processed

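DNase-seq peaks, footprints and false discovery rates were computed by the authors for each library on its own, on mm10, per the labels and the text files deposited with the data. The aligner and the peak and footprint callers, with versions and thresholds, are not named in the sources used here. The signal value of each peak is the authors' own, in units not stated. In each library 100% of values were whole multiples of 1 step, within 0.05 of a step, but nothing shows that a step stands for 1 read, so depth is unknown. The deposited false discovery rates (q-values per stretch of bases, listed only up to a limit) showed a median of 831 and 866.5 listed bases around the member starts, and were used for nothing else. The deposited footprint score is the same in every line, so only footprint positions were used.

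The longer peak list of each library was used. Start sites were those of protein-coding transcripts in GENCODE vM21, and a gene with several starts was read at the one nearest its strongest promoter peak. All 42 names matched 1 gene each. Motif words were searched on both strands from 250 bp before to 49 bp after the start, a window of 300 bp with the start base, and a match counted as footprinted where 1 base of it lay in a footprint in both libraries. For such matches, footprints outside the peaks were counted as well. Distal peaks were shared where they overlapped by 1 base. Second matches of the member sites were sought with blastn 2.17.0 (megablast, e-value 1e-10), and 40 of 42 had none on an assembled chromosome. Ndc80 had one of 88.7% identity over 203 bp and Ccnb1 one of 45 bp. Python 3.11.15, numpy 2.4.6, pysam 0.24.0 and samtools 1.23.1 were used, and the counting steps were tested on simulated data.

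There is 1 group of 2 libraries, so no test between conditions was made, and shares are given beside the same share over all genes or open promoters, as a description. Values are mean ± SD of the 2 libraries, whose labels number separate females. The members and lists were chosen with earlier results of these data known. Genes were named by rule: every member of a role group of up to 4, otherwise the 2 highest and 2 lowest by mean value, the 3 highest and lowest ratios, the 5 strongest distal sites, the 3 members with most distal sites, neighbours within 1000 bp, members with a footprinted CHR, and in each other list the highest value and up to 2 genes without a peak. Genes named for a word, for CCAAT spacing, for having neither word, for Kif4's position and for Pttg1's distal site were chosen after their values were seen. No sequence is printed for Kif20a and Cdc25c. Alternatives covered peak lists, widths, start sites, windows, overlaps and each library left out.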

Additional observations from a re-analysis of the deposited data

How the results depend on the processing

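Across 9 results and 40 alternatives, 32 values stayed within 1.5 times the count or within 1 SD of the value given, and 8 moved. The SD was 2.5 for the median value (between the library medians) and 0.39 for the ratio (over open promoters). For the number of footprints it was 1.41 (between libraries, median over the members). By such an SD, leaving out a library could hardly move the median value, so not all of the 32 show that a result is stable. All 42 promoters were called open with the shorter peak list, with peaks above their library's median value and at 250 bp. With the most upstream start alone, 41 were. At 1000 bp and in each library alone the count of 42 could not fall, since both libraries had a peak within 500 bp. Without centring, the median ratio was -0.85. In 75 bp to each side of the peak centre a CHR word was found in 16 members, against 4.1% of open promoters, while the other windows and words gave 23 to 29. Within 50 bp of the start a CCAAT box was found in 22 members. In the main window 27 members held a CHR word and 34 a CCAAT box. With the whole match inside a footprint in both libraries, 3 of 27 had a footprinted CHR (against 3.6% of open promoters with a CHR word). A footprinted CCAAT box was then found in 7 of 34 (against 15.3% of open promoters with a box). In replicate 2 alone, 12 of 27 had a footprinted CHR (against 17.6%) and 24 of 34 a footprinted CCAAT box (against 39%). In replicate 1 alone, 14 of 27 had a footprinted CHR (against 18.1%) and 18 of 34 a footprinted CCAAT box (against 39.7%). These counts are higher than with both libraries, since fewer libraries must hold the footprint. The shorter list left 59 shared distal sites, and single libraries, where sharing is not asked for, held 124 to 149. No paired analysis was possible because there is 1 group and the replicate numbers pair nothing. The depth behind the values is unknown, so no counting interval was given.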
